A study of Mus musculus with 32 samples.

Results

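Messenger RNA was compared between ILC2/b6 cells given a CRISPR guide against Bcl11b and ILC2/b6 cells given a control guide. The genes described are those with an RPKM (reads per kilobase of transcript, scaled to library size) of at least 1 in 2 or more of the 4 libraries, which left 10526 of the 24475 genes in the table. ILC2/b6 is a mouse line of group 2 innate lymphoid cells, cultured with IL-33, IL-7 and IL-2, each at 10 ng/ml. Cells of both groups were transduced with a guide vector marked by the fluorescent protein CFP (sgBcl11b-CFP or sgControl-CFP), and RNA was taken from 300000 cells. Each group had 2 libraries, called 1 and 2 here. The labels name no guide sequence, no time after transduction and no source of Cas9, and they do not say whether the 2 libraries of a group are separate cultures. The p-values below reflect only how far these libraries vary, which may be technical. The rest of the study holds the same RNA comparison in Scid.adh.2c2, a pro-T-like line, and maps of Bcl11b, GATA3, Runx1 and Runx3 binding in both lines.

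Group 2 innate lymphoid cells are tissue lymphocytes without antigen receptors. They answer alarm signals such as IL-33 by secreting IL-5, IL-13 and the growth factor amphiregulin, and they depend on the transcription factors GATA3 and RORα. Bcl11b is a zinc finger transcription factor that recruits chromatin-modifying corepressors such as the NuRD complex. It is known for holding T-cell precursors to their lineage and for keeping group 2 innate lymphoid cells from taking on features of other innate lymphoid cells.

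Bcl11b mRNA itself stood at 6.85 and 6.33 RPKM with the control guide and at 7.04 and 7.24 RPKM with the Bcl11b guide. The guide libraries were the higher ones, but the log2 fold change of 0.11 ± 0.06 (SE) did not pass the test (adjusted p = 0.278). A guide can disrupt a protein without lowering its mRNA, so this level does not check the labels. Total depth was 35.0 to 38.7 M reads (M, mega) per library, with 77.9% to 78.1% of reads on the listed genes, so that a single read on a gene 2 kb long equals 0.0129 to 0.0143 RPKM. Of 14 genes that define group 2 innate lymphoid cells, 12 were expressed, among them Gata3 (146 to 163 RPKM), Id2 (316 to 331 RPKM), Il1rl1, the IL-33 receptor (306 to 339 RPKM), and Rora (2.96 to 3.85 RPKM). The other two, Thy1 and Ptgdr2, stayed at or under 0.231 and 0.476 RPKM in every library. Of 28 defining markers of other cell types, 26 were under 1 RPKM in every library and 8 were at 0. The exceptions were Kit (18.5 to 20.0 RPKM), which many lymphoid and mast cells share, and Il22, at 1.11 RPKM in 1 guide library and at most 0.598 RPKM in the others.

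With the Bcl11b guide, 1530 of the 10526 genes (14.5%) changed, 876 upwards (8.32%) and 654 downwards (6.21%), at an adjusted p under 0.05 in limma on log2(RPKM + 0.5). Most changes were small: the median log2 fold change was 0.335 among risen genes and -0.276 among fallen genes. At 1.5-fold or more, 140 genes rose and 82 fell, and at 2-fold or more 51 rose and 12 fell. This last count of 63 was 35 with a pseudocount of 1 and 89 with one of 0.1. Of the 51 rises of 2-fold or more, 21 were of genes under 2 RPKM on average, 16 of genes at 2 to 10 RPKM and none was of a gene at 200 RPKM or above. Among genes of 50 to 200 RPKM the order of the counts turned, with 148 fallen (14.3%) and 94 risen (9.10%). Fallen genes had a median level of 21.6 RPKM and a median transcript length of 1984 bases, against 10.0 RPKM and 2571 bases for risen genes and 9.71 RPKM and 2691 bases for genes that were not called. The fold changes are of RPKM + 0.5 and so understate the change of genes under about 1 RPKM. Of the 10526 genes, 105 passed the filter only through the guide libraries and 41 only through the control libraries. For these genes the filter itself favours a change in that direction.

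The balance of rises and falls depends on the scaling. As deposited, 57.3% of the called genes rose. With each library centred on its median, which lowers the guide effect by 0.0352 log2 units, 649 rose and 909 fell (41.7% rose). With quantile normalization 686 rose and 665 fell (50.8% rose). No gene was called in the opposite direction under any setting tried. For 6308 genes (59.9%) both libraries of one group lay above both of the other, the guide libraries being higher for 33.6% of all genes and lower for 26.3%. These shares are the background for any statement below that groups lay apart. They include all 876 risen and all 654 fallen genes, so for a called gene the separation adds nothing to the call. Unless a value is given beside it, each gene described as risen or fallen kept its call with each of the 4 libraries left out in turn and under both other scalings. Lists with members that did not are given with the counts that did. A fit with 1 library left out has a lone library in 1 group, which is assumed to vary like the pair in the other. Counts of called members of a list are to be read against the shares over all genes, 8.32% risen and 6.21% fallen. Leaving out Bcl11b guide library 2 lowered the count of called genes to 807, and leaving out guide library 1 lowered it to 923. Testing all genes above 0 in 2 libraries lowered it to 690, and among the genes described below the calls of Csn2 (adjusted p = 0.111), Fos (0.113), Cxcl2 (0.0977), Ifih1 (0.0934), Ctla4 (0.0602), Fabp4 (0.0597), Itm2b (0.0614), Cma2 (0.056), Tph1 (0.0544), Pkm (0.0541), Cd200r3 (0.0537) and Gzma (0.05) ended there.

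**Figure D1:**
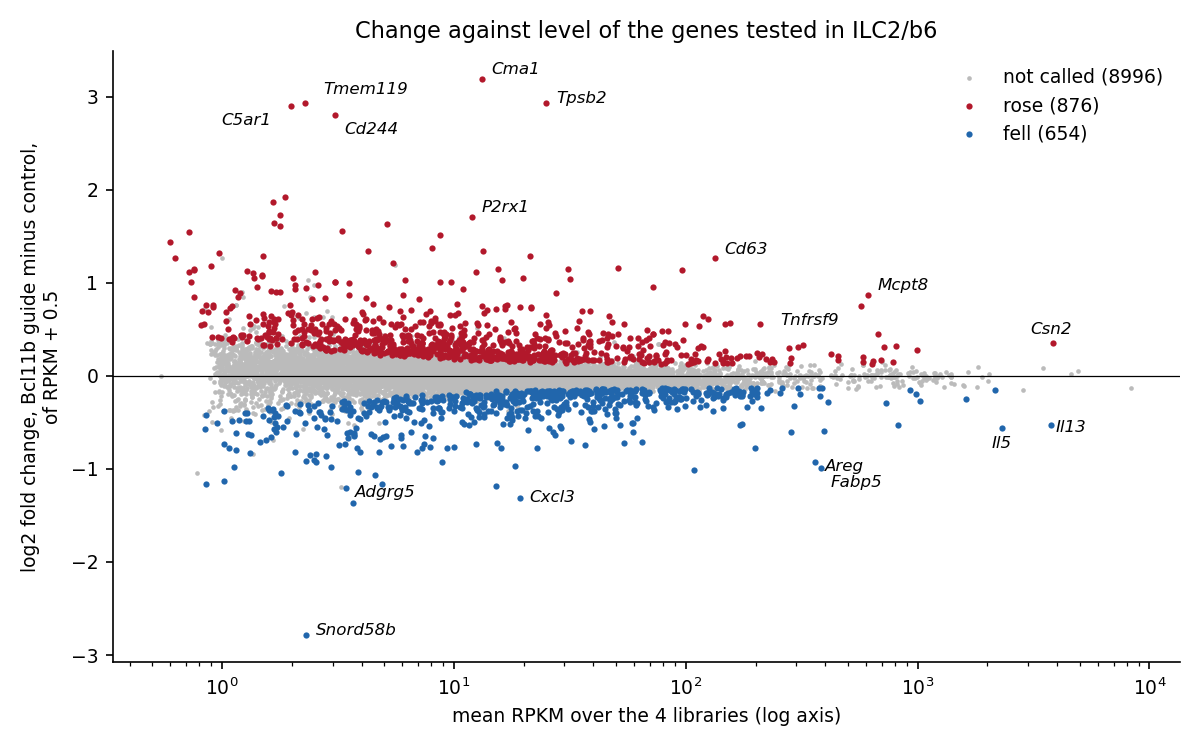
Log2 fold change (Bcl11b guide minus control, of RPKM + 0.5) against the mean RPKM over the 4 libraries on a log axis, 1 point per gene. Red points are the 876 risen genes, blue points the 654 fallen genes and grey points the 8996 genes not called. The largest rises, of Cma1, Tpsb2, Tmem119, C5ar1 and Cd244, stand at 2.80 to 3.20 log2 units, while the abundant cytokine genes Il13 and Il5 lie at -0.52 and -0.56.

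With the main pseudocount the largest rise was of Cma1. P2rx1 and Areg stand here for a risen and a fallen gene with a Bcl11b peak at the start. The upstream 250 bases of these genes and of Cma1 in RefSeq (GRCm38.p6) are shown to give the sequence at the starts. They run 5′ to 3′ on the gene's strand, ending at the base before the transcript start. Capitals mark any match to the Runx core (TGTGGT or its reverse complement ACCACA) or to a GATA motif (AGATAA or TTATCT). Cma1 is read from chr14:55944676-55944925 on the minus strand, P2rx1 from chr11:72998895-72999144 on the plus strand and Areg from chr5:91139349-91139598 on the plus strand.
Cma1: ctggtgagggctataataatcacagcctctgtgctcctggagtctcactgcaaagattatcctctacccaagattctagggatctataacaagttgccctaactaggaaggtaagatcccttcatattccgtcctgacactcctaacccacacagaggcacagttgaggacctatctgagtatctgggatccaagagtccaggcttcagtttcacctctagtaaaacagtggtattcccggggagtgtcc
P2rx1: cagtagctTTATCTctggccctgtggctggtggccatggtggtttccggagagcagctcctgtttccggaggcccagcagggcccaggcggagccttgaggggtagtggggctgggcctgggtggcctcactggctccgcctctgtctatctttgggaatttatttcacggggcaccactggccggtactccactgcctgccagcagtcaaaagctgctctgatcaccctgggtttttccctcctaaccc
Areg: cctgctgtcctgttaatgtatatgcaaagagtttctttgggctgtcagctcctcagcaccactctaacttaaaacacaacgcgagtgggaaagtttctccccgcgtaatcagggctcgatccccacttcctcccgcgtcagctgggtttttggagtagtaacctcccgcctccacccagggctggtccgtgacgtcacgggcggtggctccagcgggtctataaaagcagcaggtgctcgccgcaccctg
The single match is TTATCT in P2rx1, at position -242 from the start. The peaks are in mm9 coordinates and were not placed on these bases. Over genes with a RefSeq entry (8015 of the 10526), the Runx core stood in 12.0% of risen, 12.4% of fallen and 10.5% of uncalled promoters, and the GATA motif in 6.17%, 7.23% and 5.47%. Over all 27025 promoters of the table the shares were 14.2% and 10.3%.

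Granule proteases of the mast cell and basophil type rose together. Cma1, a chymase, stood at 1.93 and 2.50 RPKM in the control libraries and at 24.1 and 24.3 RPKM in the guide libraries (log2 fold change 3.20 ± 0.09, adjusted p = 9.33e-06). Tpsb2, a beta tryptase, went from 5.18 and 5.66 to 44.7 and 44.9 RPKM (2.94 ± 0.05). In both genes the 2 guide libraries were nearly equal and far above both controls. Tpsab1, a second tryptase, rose from 6.79 and 7.84 to 18.8 and 19.8 RPKM (1.35), and Tpsg1, a membrane-anchored tryptase, from 2.37 and 2.00 to 5.93 and 6.68 RPKM (1.34). Mcpt8, a protease typical of basophils and already abundant in this line, rose from 391 and 478 to 795 and 789 RPKM (0.87 ± 0.08, adjusted p = 0.000977). These families hold close copies, so the division of reads among Tpsb2 and Tpsab1, or among the Mcpt genes, is uncertain.

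Of 33 mast cell and basophil genes, 19 were tested, of which 12 rose, none fell and 7 were not called. Their median log2 fold change was 0.70, against 0.015 over all 10526 genes. All 12 kept their calls with any of the 4 libraries left out and under both other scalings. Since 3 of the 19 (Mcpt4, Mcpt9 and Fcer1g) passed the expression filter only through the guide libraries, the count without them is 10 risen of 16, with a median of 0.627. Cd63, a tetraspanin of lysosomes and secretory granules, rose from 78.9 and 77.6 to 192 and 185 RPKM (1.26). Tph1, the first enzyme of serotonin synthesis, rose from 687 and 744 to 879 and 913 RPKM (0.33, adjusted p = 0.289 in a joint fit with the libraries of Scid.adh.2c2), and Mcpt1 (1.06), Mcpt4 (0.96), Cd200r3 (0.70) and Mcpt2 (0.55) rose as well. Kit (-0.07) and Srgn, the granule proteoglycan serglycin (-0.10), were not called.

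The summed level of the whole mast cell and basophil list was 2327 and 2523 RPKM in the controls and 3101 and 3153 RPKM with the guide. Of its 33 genes, 14 were under 1 RPKM in every library and 5 were at 0. Of the defining markers of mast cells, Kit stood at 18.5 to 20.0 RPKM, and the others were under 1 RPKM. Ms4a2, the beta chain of the IgE receptor, was at 0 in all 4 libraries. Fcer1a, the alpha chain of that receptor, reached at most 0.028 RPKM, and Mitf at most 0.556 RPKM. In bulk RNA, a change in the number of cells that express a gene and a change in RNA per cell cannot be told apart, here or for any group below.

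**Figure D2:**
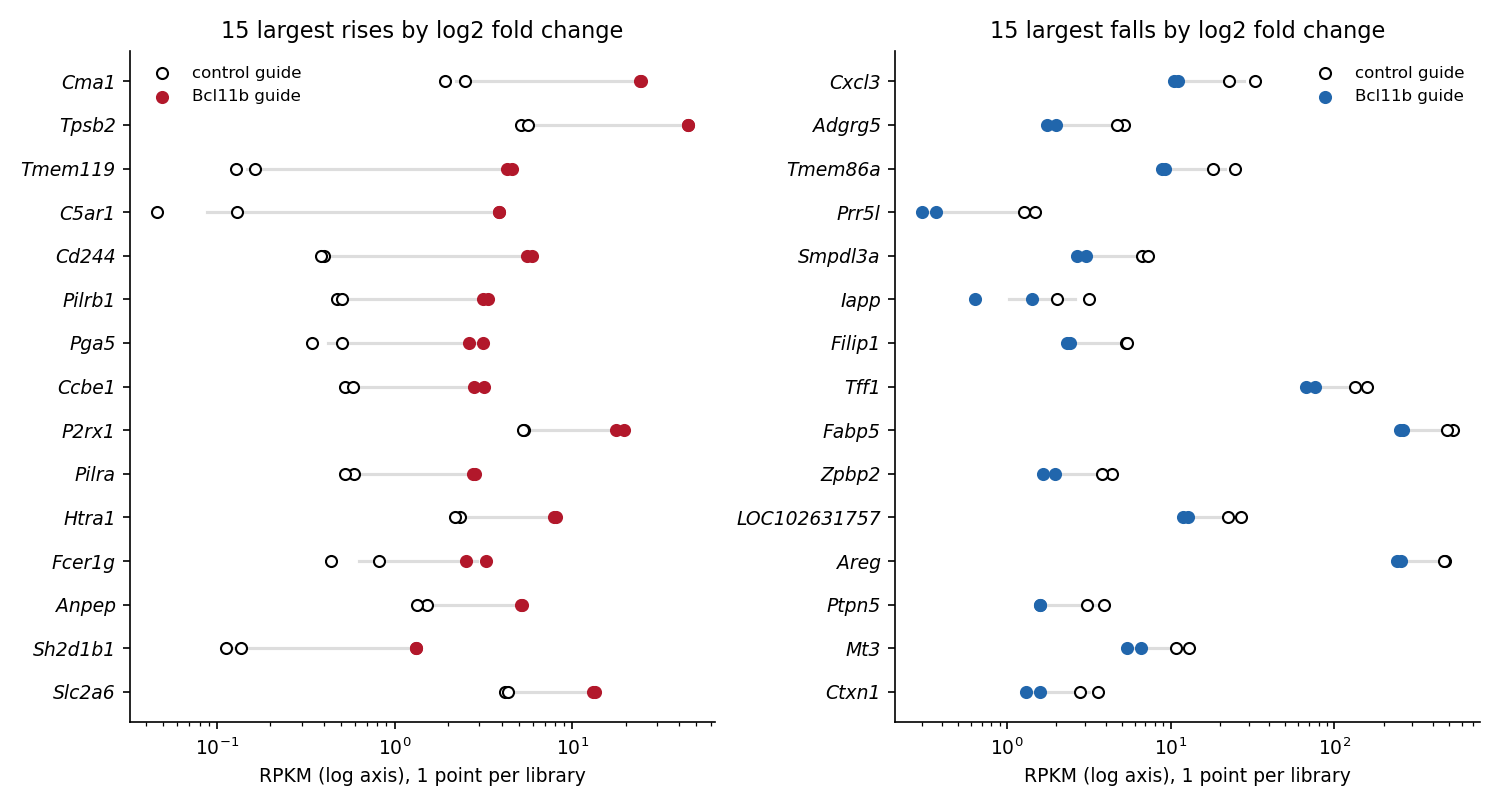
RPKM on a log axis for the 15 genes with the largest rises (left) and the 15 with the largest falls (right) by log2 fold change, short RNAs left out, 1 point per library. Open points are control libraries, filled points are Bcl11b guide libraries and grey lines join the group means. The groups lie apart in every gene shown, as they do in every called gene. They are widest apart in Tmem119 and C5ar1, and closest in Iapp (3.14 and 2.02 against 0.636 and 1.41 RPKM).

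Receptors and adaptors best known from myeloid and natural killer cells made up the next set of large rises, several of them from under 1 RPKM. C5ar1, the receptor for complement fragment C5a, stood at 0.130 and 0.046 RPKM (12 and 4 reads at the recovered depth) in the controls and at 3.87 and 3.89 RPKM (371 and 337 reads) with the guide. Its log2 fold change was 2.90 ± 0.11 with a pseudocount of 0.5 and 4.44 with one of 0.1. Tmem119, a membrane protein best known as a microglia marker, went from 0.129 and 0.165 to 4.29 and 4.56 RPKM (2.93 ± 0.10). Control and guide libraries of both genes stood far apart, and the control level rests on few reads. Cd244, a SLAM family receptor (2B4) of cytotoxic lymphocytes, rose from 0.400 and 0.387 to 5.55 and 5.92 RPKM (2.80 ± 0.08). Sh2d1b1, which encodes EAT-2, an adaptor that binds SLAM receptors, rose from 0.137 and 0.112 to 1.32 RPKM in both guide libraries (1.54, and 2.66 with a pseudocount of 0.1). Receptor and adaptor thus moved the same way, the adaptor to a lower level. Fcer1g, the signalling chain of Fc receptors, rose from 0.822 and 0.437 to 2.54 and 3.29 RPKM (1.61 ± 0.18, adjusted p = 0.0018). The paired immunoglobulin-like receptors Pilrb1 (1.92), an activating form, and Pilra (1.64), an inhibitory form, rose from 0.475 to 0.591 RPKM to 2.76 to 3.36 RPKM. Their sequences are alike, so reads may be shared between them. The low-affinity IgG receptors rose too, Fcgr3 from 6.48 and 6.06 to 13.2 and 13.1 RPKM (1.01) and Fcgr2b from 0.651 and 0.611 to 1.76 and 1.55 RPKM (0.93).

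Of 41 myeloid and macrophage genes, 12 were tested: 8 rose, 1 fell and 3 were not called (median 0.84). This count leans on the filter, since 5 of the 12 (C5ar1, Tmem119, Pilra, Pilrb1 and Fcgr2b) passed only through the guide libraries. Without those 5, 3 of 7 rose and 1 fell, with a median of 0.158. The 3 were Fcgr3 and the common beta chains of the IL-3, IL-5 and GM-CSF receptors, Csf2rb2 (11.7 and 12.8 to 20.6 and 21.4 RPKM, 0.76) and Csf2rb (0.25, adjusted p = 0.054 without guide library 2). The gene that fell was Cd68, a lysosomal protein (-0.49), whose call ended without either control library or without guide library 1 (adjusted p = 0.051 to 0.118). The summed level of the list was 68.2 and 67.4 RPKM in the controls and 101 and 102 RPKM with the guide, and 28 of its genes were under 1 RPKM in every library. Csf1r, Lyz2, Elane and S100a8, which define macrophages and neutrophils, were at 0 in all 4 libraries.

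Of 37 natural killer and cytotoxic genes, 14 were tested, with 6 risen, 1 fallen and 7 not called (median 0.19). Of these, Cd244 and Sh2d1b1 passed only through the guide libraries, and 4 of the other 12 rose, with a median of 0.0924. Serpinb9 (0.47), which is among these 4, lost its call with single libraries left out. Under quantile normalization it was not called either (0.40, adjusted p = 0.0547). Tnfsf10, the death ligand TRAIL, rose from 19.1 and 21.6 to 29.9 and 31.4 RPKM (0.58). The pore-forming Prf1 (0.39) and the granzyme gene Gzmc (0.41) rose by less. Gzma fell from 802 and 801 to 632 and 676 RPKM (-0.29), while Gzmb, among the most abundant transcripts of the line at 4736 to 5104 RPKM, was not called (0.05). The summed level of the list was 5768 and 5947 RPKM with the control guide and 5810 and 6048 RPKM with the Bcl11b guide. Eomes and Klrb1c, which define natural killer cells, reached at most 0.008 and 0.030 RPKM, and Ncr1 went from 0.018 and 0.117 to 0.337 and 0.314 RPKM, below the filter.

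Other large rises were of genes with varied roles. P2rx1, a cation channel opened by ATP, rose from 5.38 and 5.26 to 17.6 and 19.4 RPKM (1.71 ± 0.06, adjusted p = 1.70e-05). Slc2a6, of the hexose transporter family, went from 4.19 and 4.37 to 13.3 and 13.0 RPKM (1.52). The secreted protease gene Htra1 rose from 2.32 and 2.19 to 7.92 and 8.11 RPKM (1.63). All 3 were expressed in the control cells and about tripled. Anpep, aminopeptidase N, rose from 1.52 and 1.33 to 5.12 and 5.25 RPKM (1.56). Pga5, a pepsinogen, and Ccbe1, a secreted factor of lymphatic vessel growth, had less than 0.6 RPKM in each control library and rose by 1.87 and 1.73 on the log2 scale.

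The largest falls were smaller than the largest rises. Cxcl3, a chemokine that draws neutrophils, fell from 32.9 and 22.8 to 11.1 and 10.5 RPKM (-1.31 ± 0.14, adjusted p = 0.00169), with the control libraries further apart than the guide libraries. Adgrg5, an adhesion G protein-coupled receptor, fell from 5.19 and 4.71 to 2.00 and 1.75 RPKM (-1.20). Prr5l, which binds the mTORC2 kinase complex, fell from 1.48 and 1.27 to 0.301 and 0.367 RPKM (-1.17, and -1.76 with a pseudocount of 0.1). Of these 3 genes, Prr5l was the only one that dropped under 1 RPKM. Tmem86a (-1.18), Smpdl3a, a phosphodiesterase related to acid sphingomyelinase (-1.16), and Filip1 (-1.03) also fell by more than 2-fold. The genes of a pair of abundant proteins fell by about 2-fold. Tff1, a secreted trefoil peptide, went from 158 and 133 to 76.0 and 67.3 RPKM (-1.01), and Fabp5, a fatty acid-binding protein, from 532 and 489 to 263 and 250 RPKM (-0.99 ± 0.05, adjusted p = 5.86e-05). Of the 15 largest falls, Iapp, the islet amyloid peptide, is the least certain: it had 3.14 and 2.02 RPKM in the controls and 0.636 and 1.41 RPKM with the guide (-1.04). Its adjusted p was 0.136 without control library 1 and 0.051 with quantile normalization, and its fold was -0.67 without guide library 1. Of 185 short RNA genes among the 10526, 16 rose and 12 fell, about the shares over all genes. The largest fall of all was of one of them, the small nucleolar RNA Snord58b, from 5.00 and 3.72 to 0.483 and 0 RPKM (-2.78), a value that rests on a transcript of 53.5 bases.

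Several secreted effectors of group 2 innate lymphoid cells fell. Areg, which encodes amphiregulin, fell from 476 and 470 to 243 and 254 RPKM (-0.93 ± 0.04, adjusted p = 2.08e-05). Il5, the eosinophil growth factor, fell from 2671 and 2869 to 1881 and 1874 RPKM (-0.56 ± 0.05), and Il13 from 4472 and 4406 to 3025 and 3151 RPKM (-0.52 ± 0.04). With the guide the lowest level of these 3 genes was still 243 RPKM, that of Areg. Il4, from the same chromosomal cluster as Il5 and Il13, fell from 32.0 and 34.3 to 24.7 and 26.5 RPKM (-0.37). Tnfsf11, the cytokine RANKL, fell from 5.88 and 5.36 to 3.55 and 3.27 RPKM (-0.65). The 19 tested genes of the list of 26 had 7 falls, 1 rise and 11 without a call (median -0.049). The remaining 2 falls, of Tnf (-0.29) and Hbegf (-0.28), ended with single libraries left out (adjusted p up to 0.16 and 0.181). The 1 rise was of Lif (0.24, adjusted p = 0.0786 in the joint fit described next). Il9 (-0.01), Il10 (-0.05), Arg1 (0.01) and Csf2 (-0.12) were not called. In a joint fit with the 4 libraries of Scid.adh.2c2, the calls of Il5, Il13 and Il4 ended (adjusted p = 0.059, 0.223 and 0.060), and with quantile normalization the fold of Il5 was -0.34.

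Receptors through which these cells are activated or restrained changed in both directions. Cysltr2, a leukotriene receptor, rose from 16.4 and 22.2 to 41.9 and 44.2 RPKM (1.15 ± 0.12), the largest change on the list. Tnfrsf25, the receptor of TL1A, went from 12.3 in both controls to 16.8 and 18.6 RPKM (0.50), Il18rap, a chain of the IL-18 receptor, from 29.3 and 33.8 to 43.2 and 44.7 RPKM (0.48), and Icos from 40.1 and 46.0 to 59.0 and 58.4 RPKM (0.45). Nmur1, the receptor of the neuropeptide neuromedin U, fell from 57.3 and 58.2 to 41.5 and 42.5 RPKM (-0.46), and Il27ra, through which IL-27 restrains these cells, fell as well (-0.33). Of 29 tested genes on the list, 7 rose, 4 fell and 18 were not called (median 0.041), and 5 and 2 of them kept the call without each library. The receptors for the cytokines in the culture medium were nearly level: Il1rl1 (-0.02), Il7r (-0.06), Il2ra (0.04) and Il2rb (-0.03) were not called, and Il2rg, the common gamma chain, rose by 0.23.

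Among transcription factors of the innate lymphoid and T lineages, the defining ones did not pass the test. Gata3 had 146 and 151 RPKM in the controls and 151 and 163 RPKM with the guide (0.08). Rora had 3.21 and 3.85 against 2.958 and 2.997 RPKM (-0.21), Runx3 stood at 42.9 to 46.5 RPKM (-0.03) and Id2 at 316 to 331 RPKM (-0.01). Of the 37 tested, 6 rose and 9 fell, with a median of -0.031, and 4 and 6 of these kept the call without each library. Pparg, a lipid-sensing nuclear receptor, fell from 13.2 and 13.3 to 9.97 and 9.64 RPKM (-0.41), Irf4 from 39.0 and 41.1 to 30.0 and 31.1 RPKM (-0.39), and Maf from 44.4 and 43.9 to 33.4 and 34.5 RPKM (-0.38). These 3 falls were of similar size. Id3, an inhibitor of E proteins, rose from 5.70 and 5.88 to 9.80 and 9.10 RPKM (0.66). Zbtb7b, which directs helper T-cell fate (0.59), Klf4 (0.55) and Ahr, the aryl hydrocarbon receptor (0.54), rose by similar amounts. Gfi1 (-0.23) was not called but passed with median-centred values (-0.26, adjusted p = 0.0291).

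Adaptors and kinases that relay antigen receptor signals in T cells are also expressed in this line, and several fell. Ubash3a, a negative regulator of these signals, went from 6.96 and 6.71 to 3.96 and 3.76 RPKM (-0.75), and Sla, the Src-like adaptor, from 46.0 and 46.6 to 27.3 and 27.5 RPKM (-0.75, adjusted p = 5.86e-05). The adaptors Grap2 (-0.52), Lat (-0.41), Grap (-0.33) and Lcp2, which encodes SLP-76 (-0.30), fell too. All 7 genes of the list that fell kept the call without any 1 library and under both other scalings. The kinase gene Txk moved the other way, from 0.793 and 0.755 to 2.26 and 2.14 RPKM (1.08), as did the adaptor gene Sla2 (0.47). In all, 7 of 25 tested genes fell and 3 rose, with a median of -0.066. Txk passed the filter only through the guide libraries, and without it the median was -0.0848. The third riser, Lat2 (0.13), lost its call when values were median-centred (adjusted p = 0.143), without guide library 1 (0.28) or 2 (0.262) and without control library 2 (0.0544). Zap70, at 56.0 to 56.7 RPKM, was not called.

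**Figure D3:**
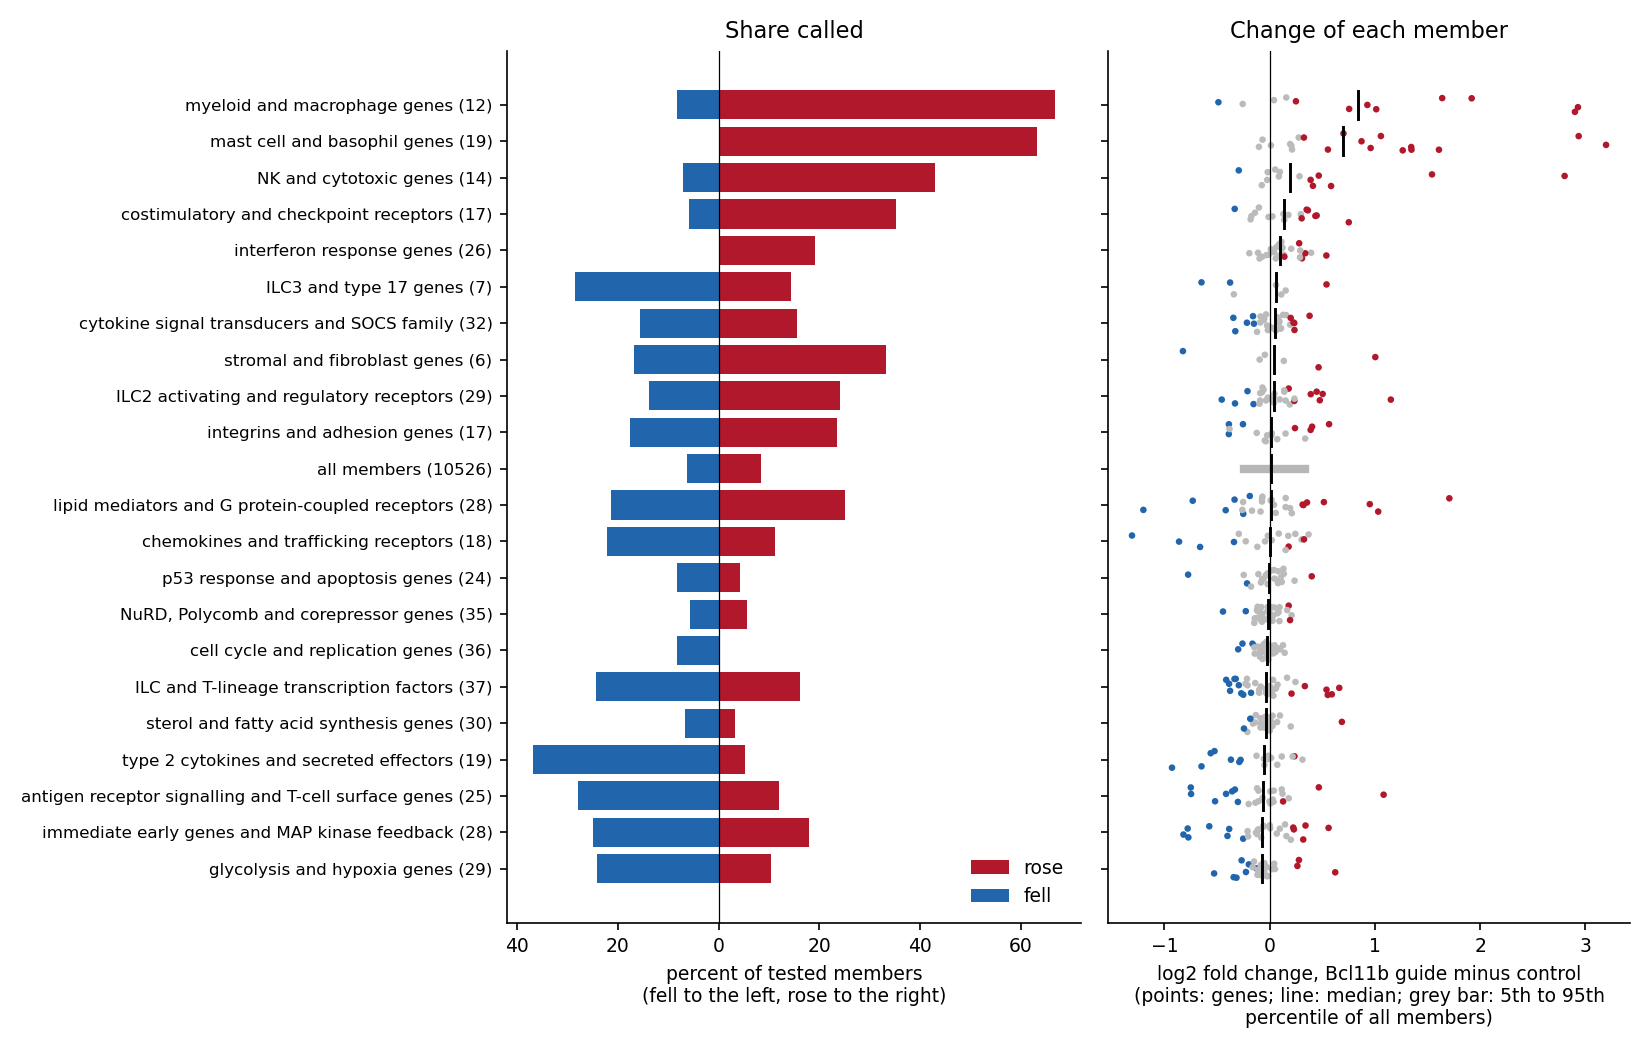
Left, the percent of the tested members of each list that rose (red, to the right) or fell (blue, to the left), with the number tested in brackets. Right, the log2 fold change of each member, with the median as a black line and the 5th to 95th percentile of all 10526 genes as a grey bar. Lists with fewer than 5 tested members are left out. Of those shown, the mast cell and basophil list (12 of 19 risen) and the myeloid list (8 of 12 risen) lie furthest to the right. Without members that passed the filter only through the guide libraries, 10 of 16 (median 0.627) and 3 of 7 (median 0.158) rose. Of 19 secreted effectors, 7 fell.

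Receptors and enzymes of lipid and purine signals showed both directions as well. Alox5, the 5-lipoxygenase that starts leukotriene synthesis, rose from 10.5 and 10.4 to 21.5 and 22.4 RPKM (1.03 ± 0.05), and of the leukotriene receptor genes tested Cysltr2 rose (1.15), while Cysltr1 (-0.07) and Ltb4r1 (0.01) were not called. Adgrg3, an adhesion G protein-coupled receptor, went from 47.6 and 51.0 to 93.3 and 98.2 RPKM (0.95), while Adgrg5 (-1.20) and Adgrg1 (-0.73) of the same family fell. The purine receptor genes P2rx1 (1.71), P2ry1 (0.52), P2ry14 (0.35) and P2rx4 (0.32) rose, whereas Adora2b, an adenosine receptor, fell (-0.42). Of 28 tested genes on this list 7 rose and 6 fell, of which 7 and 3 kept the call without each library. The median was 0.014, next to 0.015 over all genes.

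Among chemokines and trafficking receptors the changes that held were falls. Cxcl2, a relative of Cxcl3, went from 4.57 and 3.04 to 2.04 and 1.64 RPKM (-0.86), and S1pr1, the receptor that guides lymphocytes out of tissues, from 6.75 and 5.67 to 3.92 and 3.55 RPKM (-0.66). Of 18 tested chemokines and trafficking receptors 4 fell and 2 rose, and neither rise (Cxcr4 at 0.33 and Ccr1 at 0.18) held with median-centred values (adjusted p = 0.056 and 0.075). The fall of Ccr3 (-0.34) lost its call without guide library 2 (-0.31) or control library 1 (-0.33). Among integrins and adhesion genes 4 of 17 rose and 3 fell, of which 3 and 2 kept the call without each library. Itgb1, the beta 1 integrin chain, rose from 8.36 and 9.54 to 13.8 and 13.1 RPKM (0.56), and Cd47 rose by 0.40. Itgb3 (-0.39) and Itgal, the LFA-1 alpha chain (-0.25), fell.

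Costimulatory receptors were led by Tnfrsf9 (4-1BB), which rose from 401 and 446 to 712 and 714 RPKM (0.75 ± 0.05, adjusted p = 0.000271). Of 17 tested genes, 6 rose and 1 fell (median 0.14). Of the 6, Tnfrsf9 and Icos kept the call without each library. Cd274 (0.30), Pdcd1lg2 (0.35), Cd86 (0.36) and Nt5e (0.43) each lost it without 1 or more (adjusted p = 0.056 to 0.123). Ctla4 fell from 40.4 and 44.3 to 34.6 and 32.5 RPKM (-0.33).

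Immediate early genes, which cells induce within minutes of a stimulus, fell in part. Egr1 went from 27.6 and 30.4 to 16.8 and 16.5 RPKM (-0.78 ± 0.05), Dusp1, a MAP kinase phosphatase, from 9.13 and 9.48 to 5.20 and 5.28 RPKM (-0.77), and Fos from 7.30 and 10.8 to 4.28 and 5.42 RPKM (-0.82 ± 0.17). The 2 control libraries differed most in Fos. Of 28 tested genes 7 fell and 5 rose, of which 5 and 2 kept the call without each library. Ier3 rose from 43.2 and 44.6 to 65.8 and 64.2 RPKM (0.56), and Tnfaip3, an inhibitor of NF-κB signals, rose by 0.34. Junb, Jund and Myc were not called (-0.08, -0.11 and -0.13). Of 32 tested cytokine signal transducers 5 rose and 5 fell (1 and 2 without each library), the largest fall being of the kinase gene Pim1, from 168 and 156 to 124 and 131 RPKM (-0.34).

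General programs of the cell differed in how many genes changed. Of 36 tested cell cycle and replication genes, 3 fell and none rose, and of these only Rrm2 (-0.26) kept the call without each library. Mki67 stood at 77.3 to 83.7 RPKM (0.06). Of 24 p53 response and apoptosis genes, 1 rose (the death receptor Fas, 0.40) and 2 fell, Bcl2a1b (-0.77) and Sesn1 (-0.21, adjusted p = 0.0771 to 0.233 with 1 library left out). Of 30 sterol and fatty acid synthesis genes, 1 rose (Elovl6, 0.69) and 2 fell, neither of which kept the call without each library. Of 29 glycolysis and hypoxia genes, 7 fell and 3 rose, of which 3 and 2 kept the call without each library. The glucose transporter gene Slc2a3 fell from 64.5 and 58.5 to 41.7 and 43.2 RPKM (-0.53), and the glycolytic genes Pkm (-0.27, adjusted p = 0.139 in the joint fit), Aldoa (-0.20) and Gapdh (-0.13) fell by less. The calls of Aldoa and Gapdh ended without guide library 1 (adjusted p = 0.11 and 0.326) or guide library 2 (0.119 and 0.234). Of 26 interferon response genes, 5 rose and none fell (median 0.10). Only Ifih1, from 2.18 and 2.78 to 3.64 and 3.99 RPKM (0.54), kept its call without each library. Of 35 genes of NuRD, Polycomb and other corepressors, partners through which Bcl11b is known to act, 2 rose and 2 fell, of which only Chd3 kept the call without each library. It fell from 20.6 and 20.5 to 14.7 and 15.2 RPKM (-0.44), and Mta1, Mta2, Hdac1, Hdac2 and Chd4 were not called.

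The abundant mRNAs of the line changed by modest factors but by many RPKM units. Csn2, the milk protein beta-casein, had 3176 and 3588 RPKM in the controls and 4398 and 4205 RPKM with the guide (0.35, adjusted p = 0.0123, and 0.355 in the joint fit). Ctsd, the lysosomal protease cathepsin D, rose from 555 and 590 to 773 and 790 RPKM (0.45). On the other side, Cd52, a small surface glycoprotein, fell from 967 and 986 to 687 and 664 RPKM (-0.53), and Slpi, a secreted protease inhibitor, from 514 and 436 to 314 and 312 RPKM (-0.60, adjusted p = 0.0821 in the joint fit). The 10 largest rises in RPKM units also held Itm2b, Ctla2a and the class I genes H2-L and H2-K1, at 0.15 to 0.31 log2 units. Without guide library 1 or 2, the calls of H2-L (adjusted p = 0.147 and 0.296) and H2-K1 (0.0771 and 0.0814) ended, and that of Ctla2a ended without guide library 1 (0.0785) and under both other scalings (0.0532 and 0.0854). Actg1, cytoplasmic actin, had a log2 fold change of -0.16, which turned to 0.077 with quantile normalization and was not called without guide library 1 (0.238) or 2 (0.319).

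Some risen genes stood next to each other on the chromosome (mm9 coordinates as deposited). These stretches were picked after the values were seen. In the chymase and mast protease stretch (chr14:56560288-56704034), 6 of 7 tested genes rose: Cma1 (3.20), Cma2 (0.46), Mcpt1 (1.06), Mcpt2 (0.55), Mcpt4 (0.96) and Mcpt8 (0.87), while Mcpt9 (0.28) was not called. All 3 tested tryptase genes rose in chr17:25480190-25511387. In the stretch from Fcgr2b to Cd244 (chr1:172890689-173515447), the immune receptor genes Fcgr2b (0.93), Fcgr3 (1.01) and Cd244 (2.80) and the Fc receptor chain gene Fcer1g (1.61) rose. The housekeeping genes Sdhc (-0.01), Ppox (0.07) and Usf1 (0.01), which lie between them, were not called. In the type 2 cytokine cluster (chr11:53425963-53538605), Il4, Il13 and Il5 fell and Rad50, which lies between Il13 and Il5, was not called (-0.05). Between Cxcl3 and Areg (chr5:91215127-91577458), Cxcl3, Cxcl2 and Areg fell, while Mthfd2l (-0.02) and Ereg (0.03) were not called. The neighbouring genes Fabp5 and Fabp4 (chr3:10012585-10208616) moved apart, Fabp5 falling (-0.99) and Fabp4 rising from 0.951 and 0.421 to 2.33 RPKM in both guide libraries (1.29).

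**Figure D4:**
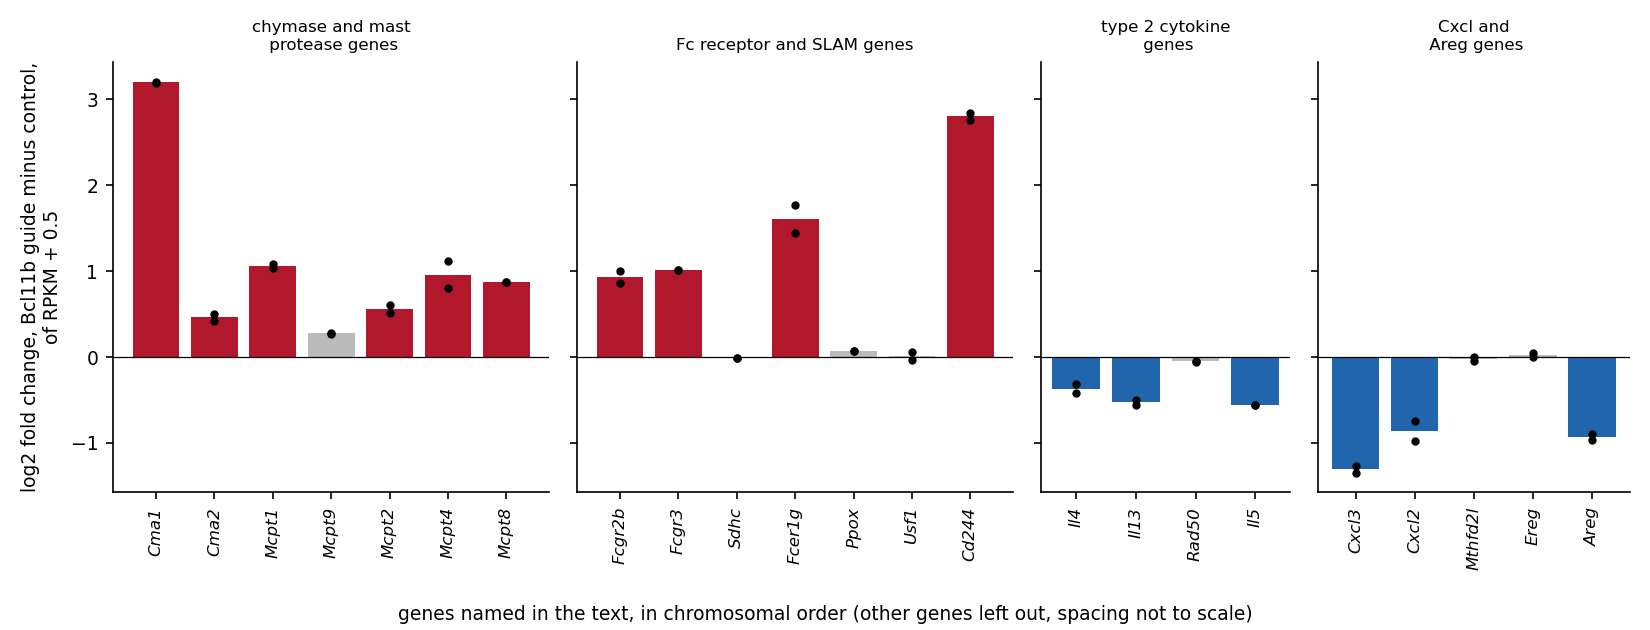
Log2 fold change (bars) of genes named in the text from 4 chromosomal stretches, in order along the chromosome with other genes left out, with the 2 guide libraries as points relative to the control mean. Red bars are risen genes, blue bars fallen genes and grey bars genes not called. In the Fc receptor and SLAM stretch the immune genes stand at 0.93 to 2.80, and Sdhc, Ppox and Usf1 between them at -0.01 to 0.07.

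Binding of Bcl11b was measured in the same line by ChIP-seq, as 1 list of 21677 peaks from 2 libraries together, so peaks carry no replicate spread. A gene was counted as bound when it was the nearest gene of a peak within 10 kb of its start, in the deposited annotation. A Bcl11b peak stood near 582 of 876 risen genes (66.4%), 454 of 654 fallen genes (69.4%) and 5353 of 8996 uncalled genes (59.5%), and near 60.7% of all 10526. Genes with the larger changes were not bound more often within 10 kb: the share was 55.0% of those risen 1.5-fold or more and 51.2% of those fallen as far. The gap between called and uncalled genes was wider for stronger peaks and narrower close to the start. With peaks at or above the median score of the list, 46.5%, 44.5% and 33.1% of risen, fallen and uncalled genes had a peak. For genes risen or fallen 1.5-fold or more, these shares were 38.6% and 26.8%. Within 1 kb of the start the 3 shares were 55.3%, 54.6% and 52.2%, and 39.3% and 31.7% for the larger changes. Within 50 kb the larger changes had 64.3% and 65.9%, against 63.9% of uncalled genes. Of the Bcl11b peaks near risen genes, 27.3% overlapped a GATA3 peak by at least 1 base. The share was 27.1% near fallen and 18.8% near uncalled genes. Near genes changed 1.5-fold or more it was 36.1% for risen and 27.3% for fallen genes. Peaks near risen and fallen genes also lay beyond 1 kb of the start more often, in 42.5% and 45.3% against 29.9%, so the kind of site differs along with the GATA3 overlap. Overlap with Runx1 (60.9%, 66.3% and 62.8%) and Runx3 (78.2%, 80.1% and 80.6%) differed less. These shares are descriptions without a test.

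**Figure D5:**
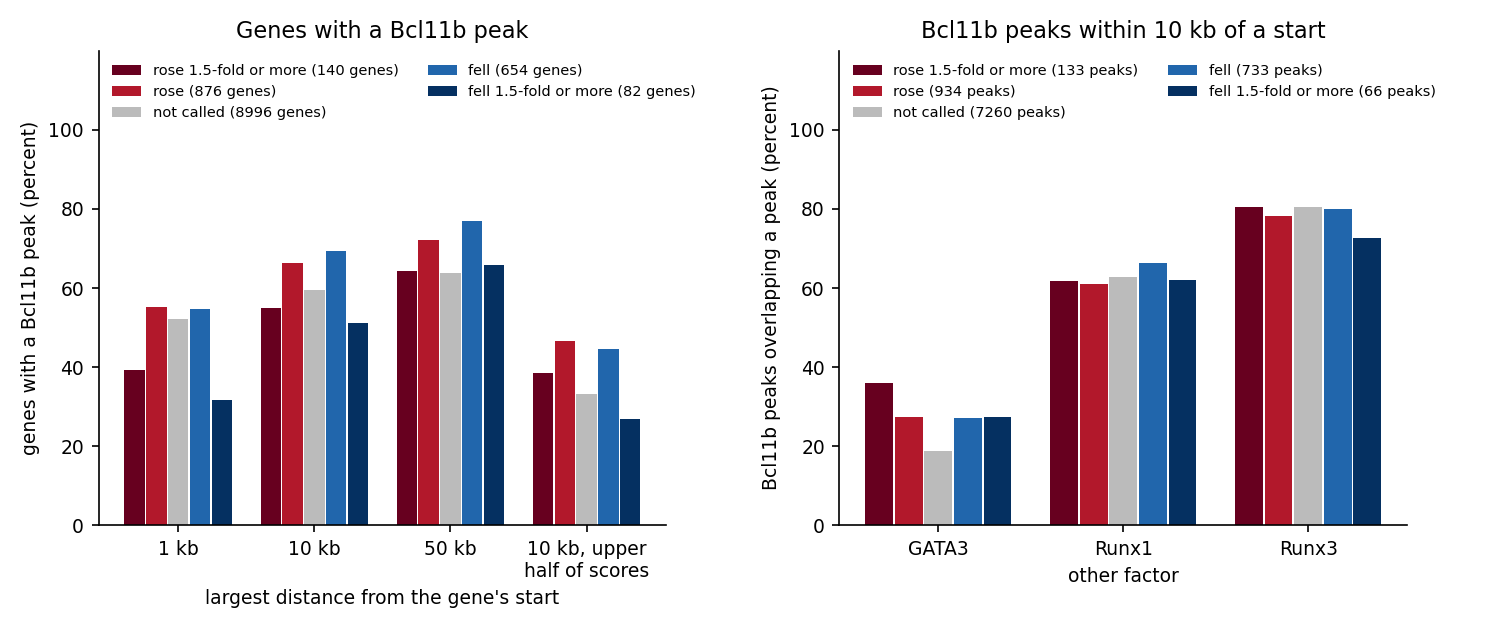
Left, the percent of genes of each class with a Bcl11b peak within 1, 10 or 50 kb of the start, or within 10 kb with a score in the upper part of the list. Right, the percent of Bcl11b peaks within 10 kb of genes of each class that overlap a GATA3, Runx1 or Runx3 peak. At 10 kb the shares are 66.4% for risen, 69.4% for fallen and 59.5% for uncalled genes, and GATA3 overlap is 27.3%, 27.1% and 18.8%.

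Single genes differed in whether such a peak was near. Tnfrsf9 had 4 Bcl11b peaks within 10 kb. The highest (chr4:150298405-150298659, annotated as intronic but upstream of the Tnfrsf9 start, at -3576) had a score of 312.4, rank 12 of the list. Il13 had 3, the highest (chr11:53449712-53449966, intergenic, at -1635 from the start) with a score of 209.0, and Mcpt8 had 3, the highest (intergenic, at -8333) with a score of 176.1. Each of these overlapped peaks of GATA3, Runx1 and Runx3. C5ar1 had a peak in an intron, at 4878 bases past the start (chr7:16839682-16839936, score 122.1), and P2rx1 a peak in the promoter, at -208 (chr11:72812312-72812566, score 77.8), both shared with all 3 other factors. Areg had a peak at its start (chr5:91568537-91568791, score 46.7), shared with Runx1 and Runx3 but not with GATA3. Among the genes with no Bcl11b peak within 10 kb were Cma1, Tpsb2, Tmem119, Cd63, Cxcl3 and Fabp5, which include the 3 largest rises and the largest fall among named protein-coding genes.

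The same guide comparison in Scid.adh.2c2 was set against these effects by the interaction contrast of limma over the 8 RNA libraries, in which the effects of the lines differed for 4623 of the 10526 genes (43.9%). The ILC2/b6 effect was the higher one for 1822 genes (17.3%) and the lower one for 2801 (26.6%). This order turned with each library centred on its median (2872 higher, 2127 lower) and with quantile normalization (2917 higher, 2087 lower). In Scid.adh.2c2 alone, 44.7% of the same genes were called, 28.6% upwards and 16.1% downwards. The genes were chosen by their ILC2/b6 levels, and 9147 of the 10526 reached the same filter in Scid.adh.2c2. A gene not called there may thus be one that was little expressed. For 460 genes the transcript model differed between the lines. Of the 876 genes that rose in ILC2/b6, 384 also rose in Scid.adh.2c2 (43.8% of the ILC2/b6 list and 12.8% of the 3010 risen there), 75 fell and 417 were not called. Of the 654 that fell, 125 also fell there (19.1%, and 7.37% of the 1697 fallen there), 211 rose and 318 were not called. The difference itself passed for 566 of the risen genes (64.6%) and 473 of the fallen genes (72.3%). Cma1 and Tpsb2 were at or near 0 in Scid.adh.2c2 with either guide, and their effects differed by 3.01 and 2.94 log2 units between the lines. Il13 fell in ILC2/b6 (-0.52) and rose in Scid.adh.2c2 (2.18), a difference of -2.70 (adjusted p = 0.000562). Egr1 also moved in opposite directions, at -0.78 and 2.42 (difference -3.20). Tnfrsf9 rose in both lines, by 0.75 and 0.81, and the difference of -0.06 was not called (adjusted p = 0.806).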

How the data were processed

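The authors deposited RPKM values per gene and library, in 1 table for each line. Per the submitters' processing notes RSEM 1.2.25, STAR 2.4.0, Bowtie 1.1.1, edgeR 3.6.8, Trimmomatic and HOMER were used with NCBIM37 and mm9. Peaks were annotated with HOMER on mm9, per the file headers, and the roles of the other tools are not stated in the sources used here. The labels' protocols name 50 nt single reads and a library kit not known to mark strand, so reads of overlapping genes on opposite strands are not separable. Library totals were recovered from the steps of low RPKM values: 1996 to 2036 values per ILC2/b6 library were tested, and 100% were whole reads within 0.1 read. This depth speaks to counting error only.

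With limma 3.58.1 in R 4.3.3, log2(RPKM + 0.5) was compared between groups, using a prior variance that follows the mean, and p-values were adjusted over all 10526 genes by Benjamini and Hochberg's method. Every adjusted p is from limma. The test was checked on simulated libraries with known changes and an equal spread beyond counting error for every gene. Over 10 runs it called 209 of 103260 unchanged genes, among 1924 calls in all. It found 53.6% of the 1.25-fold changes and 91.5% of the 1.5-fold changes. The share of false calls in the real data was not measured. Of the genes called here, 47.0% of the risen and 59.0% of the fallen changed by less than 1.25-fold. Peak lists hold the authors' scores for a set called on 2 pooled libraries, per the file headers. A score only ranks peaks within its list. In the 4 lists 9714 of the genes were named as nearest to a peak. Promoter sequences came from RefSeq (GRCm38.p6), a different build from the peaks, so neither was placed on the other.

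Named genes were Bcl11b, the 15 largest rises and falls, the 10 largest changes in RPKM, list members, and the 10 largest differences between lines in each direction. The genes compared and the 23 gene lists were chosen with earlier results of these data known, so lists are described by counts and medians only. Alternatives were other pseudocounts, filters and scalings, no trend, a replicate block, a joint fit, and each library left out. A few genes are not reported here.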

Additional observations from a re-analysis of the deposited data

Results flagged for a closer look

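The guide effect differed between ILC2/b6 and Scid.adh.2c2 for 4623 genes, by the interaction contrast of limma over the 8 RNA libraries. Among the 10 genes whose effect was furthest above that of Scid.adh.2c2, the differences in log2 units (ILC2/b6 minus Scid.adh.2c2) were 3.01 for Cma1, 3.0 for Fabp4, 2.94 for Tpsb2, 2.90 for Ndrg1, 2.75 for Tmem119, 2.50 for Cd244, 2.43 for C5ar1, 2.28 for Ankrd37, 2.20 for Gm38670 and 2.13 for Deptor. In Cma1, Tpsb2, Tmem119, Cd244 and C5ar1 the change lay in ILC2/b6, and the Scid.adh.2c2 libraries held at most 0.237 RPKM. In Ndrg1 and Ankrd37 it lay in Scid.adh.2c2, where these hypoxia-responsive genes fell by 3.13 and 2.43 log2 units, from control libraries that were far apart (117 and 45.9 RPKM, and 29.1 and 14.2 RPKM). In ILC2/b6 they stood at -0.23, a fall that ended without either guide library (adjusted p = 0.115 and 0.112) or control library 1 (0.0906), and at -0.15, not called. Gm38670 rose in ILC2/b6 (1.27), though not under quantile normalization (0.075), from 0.352 and 0 RPKM, and was not called in Scid.adh.2c2. Fabp4 and Deptor rose in ILC2/b6 (1.29 and 0.61) and fell in Scid.adh.2c2 (-1.71 and -1.52).

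The 10 differences furthest the other way were -5.97 for Ly6c2, -5.89 for Il2rb, -5.85 for Ccl3, -5.58 for Ly6c1, -5.43 for Gm4070, -5.43 for Gvin1, -5.19 for Ly6a, -5.08 for Gm8989, -4.97 for Cd52 and -4.78 for Ctsw. Each of the 10 rose in Scid.adh.2c2 by 4.44 to 5.86 log2 units, from under 6 RPKM there. In ILC2/b6, Ly6c2 (-0.29) and Cd52 (-0.53) fell and the other 8 were not called, at -0.12 to 0.26. Ly6a stood at 1952 to 2102 RPKM and Il2rb at 149 to 156 RPKM in ILC2/b6 with either guide. Gm4070, Gvin1 and Gm8989 are near-identical copies, as are Ly6c1 and Ly6c2, so how reads divide among them is uncertain.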

How the results depend on the processing

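Pseudocounts of 0.1 and 1 and a filter on the mean RPKM kept the counts of called genes within 1.5 times of 1530, while the count at 2-fold or more went from 63 to 89 and 35. Without a filter beyond a value above 0 in 2 libraries, 690 genes were called (419 risen, 271 fallen). Without the mean-variance trend 1073 were called (673 and 400), and in the joint fit 1537 (912 and 625). With 1 library left out the count lay between 807 and 2099, with 464 to 1139 risen and 343 to 960 fallen. In every one of those 4 fits 370 of the 876 risen and 246 of the 654 fallen genes were called, and in every setting 278 and 183. With the replicate number as a block, 2258 were called (1300 risen, 958 fallen) and, between lines, 4305. The correlation over 10526 genes of the deviations of same-numbered libraries was 0.106. With 2 libraries per group the second pair mirrors the first, so this value cannot settle whether they are paired. The labels give only the replicate number. The count of genes that differ between lines lay between 3505 and 4697 with 1 library left out. Those with a higher effect in ILC2/b6 numbered 1822, against 2872 when libraries were median-centred and 2917 under quantile normalization, and those with a lower effect 2801, 2127 and 2087. Shares of risen, fallen and uncalled genes with a Bcl11b peak were 46.46%, 44.5% and 33.07% for peaks of at least the median score, 55.25%, 54.59% and 52.16% within 1 kb and 72.15%, 76.91% and 63.87% within 50 kb. Actg1 turned from -0.16 to 0.077 with quantile normalization (adjusted p = 0.33). The causes were not tested. Depth limits values that rest on few reads, such as those of C5ar1 in the control libraries, which held 12 and 4 reads.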

Other observations

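A few genes of cells foreign to lymphocytes rose from a base already above 1 RPKM. Hba-a2 and Hba-a1, near-identical copies of the alpha-globin gene, went from 15.2 to 16.9 RPKM in the controls to 26.8 to 27.2 RPKM with the guide (log2 fold changes 0.73 and 0.74), while Hbb-b1 stayed at or under 0.274 RPKM. Dcn, the matrix proteoglycan decorin, rose from 5.31 and 5.99 to 12.8 and 10.9 RPKM (1.00) and Epcam, an epithelial adhesion molecule, from 21.6 and 24.0 to 31.6 RPKM in both guide libraries (0.46). Krt18, an epithelial keratin, fell from 2.02 and 1.64 to 0.742 and 0.883 RPKM (-0.82). Col1a1 and Pdgfrb, which define stromal cells, reached at most 0.146 and 0.021 RPKM. B-lineage genes gave 2 tested members of 17, Cd79b (0.17) and H2-Ab1 (-0.18), neither of them called. Of 7 tested ILC3 and type 17 genes, Ahr rose (0.54), Maf (-0.38) and Tnfsf11 (-0.65) fell and 4 were not called. Il17a reached at most 0.022 RPKM.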
